A study of Mus musculus with 3 samples.

Results

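Among nuclei sorted from mouse dorsal skin, a set was chosen for open chromatin at genes of pericytes and vascular smooth muscle. Single-nucleus ATAC-seq counts transposase insertions in open DNA, here in features of 500 bp. A nucleus was chosen where 3 or more open features overlapped the gene body plus 2 kb of 11 markers (Rgs5, Pdgfrb, Acta2, Myh11, Notch3, Cspg4, Tagln, Kcnj8, Abcc9, Des and Jph2), and where these features made up at least 2 times their share in all nuclei pooled. That pooled share was 0.0290% of open features, so 0.0580% was needed. The rule chose 305 of 12348 nuclei, of which 116 were of anagen skin, 156 of UVB-exposed skin and 33 of telogen skin. The markers did not run together well enough for the name pericyte or smooth muscle, as the values below show, so the chosen nuclei are called marker-rule nuclei.

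All mice were Dct-rtTA; Tre-H2B-GFP animals given doxycycline in drinking water for 5 days, and GFP+ nuclei were sorted. The label is driven by the promoter of Dct, a melanin-synthesis gene, so shares are of sorted nuclei and not of skin cells. Anagen skin (8 mice) had been depilated with Nair to start hair growth, UVB skin (24 mice) had been irradiated 3 times at 2.2 mJ/cm2, and telogen skin (12 mice) was resting. Their age is 7 weeks in the treatment protocol but 8 weeks among the characteristics. Mice were pooled, and each condition was treated as 1 sample without a replicate check. Anagen and telogen nuclei shared 1 library and UVB nuclei came from others, so an effect of UVB cannot be told apart from that of its libraries.

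Pericytes and vascular smooth muscle cells, together called mural cells, wrap the endothelial tube of small vessels and contract or relax to set its width. PDGF-B from the endothelium acts on their receptor PDGFRB, and Notch signals through NOTCH3 maintain the smooth muscle state. Both cell types share collagen and matrix genes with fibroblasts, beside which they lie in the dermis.

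Marker-rule nuclei were mostly deep ones. Marker-rule nuclei had a median of 3104 open features, against 915 in the other nuclei. Of nuclei with 500 to 1000 open features 0.323% were chosen, of nuclei with 4000 to 8000 it was 15.1%, and of the 96 nuclei with 8000 or more it was 2.08% (2 nuclei). The chosen share was 3.09% of anagen nuclei (95% Clopper-Pearson interval 2.56% to 3.70%), 2.38% of UVB nuclei (2.03% to 2.78%) and 1.62% of telogen nuclei (1.11% to 2.26%). Within 2000 to 4000 open features the order was the same, at 10.0% in anagen, 7.69% in UVB and 4.60% in telogen. Within 4000 to 8000 it was 12.7% in anagen, 19.1% in UVB and 10.7% in telogen. With nuclei of 1000 or more open features thinned to 1000 each, the shares were 1.54% in anagen, 0.485% in UVB and 0.865% in telogen. Intervals here and below cover counting error only, and most counts come in pairs, which makes the intervals too narrow.

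Tag numbers in the barcode names, which the labels do not explain, held unequal parts of the set. UVB tag number 19 held 100 of the 156 UVB marker-rule nuclei (64.1%) and 44.8% of all UVB nuclei, and without it the UVB share was 1.55%. Anagen tag numbers 3 to 5 held 109 of 116 (94.0%) and 81.5% of all anagen nuclei. Telogen tag numbers 1 to 4, with median depths from 1602.5 to 8131.5 open features, held 18 of 33 (54.5%) and 19.8% of all telogen nuclei. Of the 305 nuclei, 28 had a barcode that also occurred in another condition. They were 7 of 116 in anagen, 14 of 156 in UVB and 7 of 33 in telogen. Among all nuclei it was 217 of 3753, 506 of 6553 and 289 of 2042.

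Just inside the threshold, 177 marker-rule nuclei had 3 open marker features, 72 had 4 and 56 had 5 or more, up to 10. Just outside it, 490 nuclei had 2 such features and the needed share, and 77 had 3 or more but a share below the needed one, with a median depth of 7803 open features. The lowest share inside was 0.0582% and the highest share outside, among nuclei with 3 or more features, was 0.0576%. In 72.6% of all nuclei no marker feature was open.

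Most marker-rule nuclei were chosen through 2 pericyte markers. Cspg4, which encodes the NG2 proteoglycan of pericytes, was open in 62.6% of them (191 nuclei), against 11.1% of the other nuclei. Pdgfrb, the PDGF receptor, was open in 45.6% (139 nuclei), against 4.56% of the other nuclei. One or both were open in 266 of 305 nuclei (87.2%), and 46 nuclei had no other marker open than Cspg4. These percentages describe the choice, since the same features made it. The windows also differed in size, and those with more features had more places to be open. Of 113 window features, Cspg4 had 24, Pdgfrb 20, Abcc9 19, Myh11 12 and Notch3 10. Rgs5 and Jph2 had 8 each, Acta2 5, Tagln 3, and Kcnj8 and Des 2 each. The part of window size in the order of the markers was not tested.

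The KATP channel pair Abcc9, its regulatory subunit, and Kcnj8, its pore, are pericyte markers that lie side by side on chromosome 6. Abcc9 was open in 29.8% of marker-rule nuclei and Kcnj8 in 8.52%, against 2.88% and 0.855% of the other nuclei. Notch3 was open in 19.3%, against 2.77% of the other nuclei, and Rgs5, a regulator of G-protein signalling, in 10.2%, against 1.52%. No smooth muscle marker was open in more nuclei than Myh11. Myh11, the smooth muscle myosin heavy chain, was open in 15.4%, against 2.72% of the other nuclei. Acta2, smooth muscle actin, stood at 12.8%, against 1.60%, and Jph2, a junctophilin that ties the sarcoplasmic reticulum to the cell membrane, at 11.5%, against 0.722%. Tagln, the actin-binding transgelin, was open in 5.90%, against 0.706%, and Des, the intermediate filament desmin, in 3.61%, against 0.224%.

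Most nuclei had 1 or 2 markers open. In 60 marker-rule nuclei 1 marker was open, in 143 it was 2 and in 102 it was 3 or more, with 7 at most. Pericyte markers without any smooth muscle marker were open in 188 nuclei, both kinds in 113 and smooth muscle markers alone in 4. The largest windows, of Cspg4, Pdgfrb and Abcc9, were those of pericyte markers. Only 28 nuclei (9.18%) had 2 or more smooth muscle markers open.

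The conditions differed in which pericyte marker led. In anagen, Pdgfrb was open in 59.5% of marker-rule nuclei (interval 50.0% to 68.5%), in UVB in 37.2% (29.6% to 45.3%) and in telogen in 36.4% (20.4% to 54.9%). Cspg4 was open in 47.4% in anagen (38.1% to 56.9%), 72.4% in UVB (64.7% to 79.3%) and 69.7% in telogen (51.3% to 84.4%). Abcc9 stood at 40.5% in anagen, 23.1% in UVB and 24.2% in telogen. Without tag number 19 the UVB values were 17.9% for Pdgfrb, 85.7% for Cspg4 and 7.14% for Abcc9, and within tag number 19 they were 48%, 65% and 32%.

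**Figure D1:**
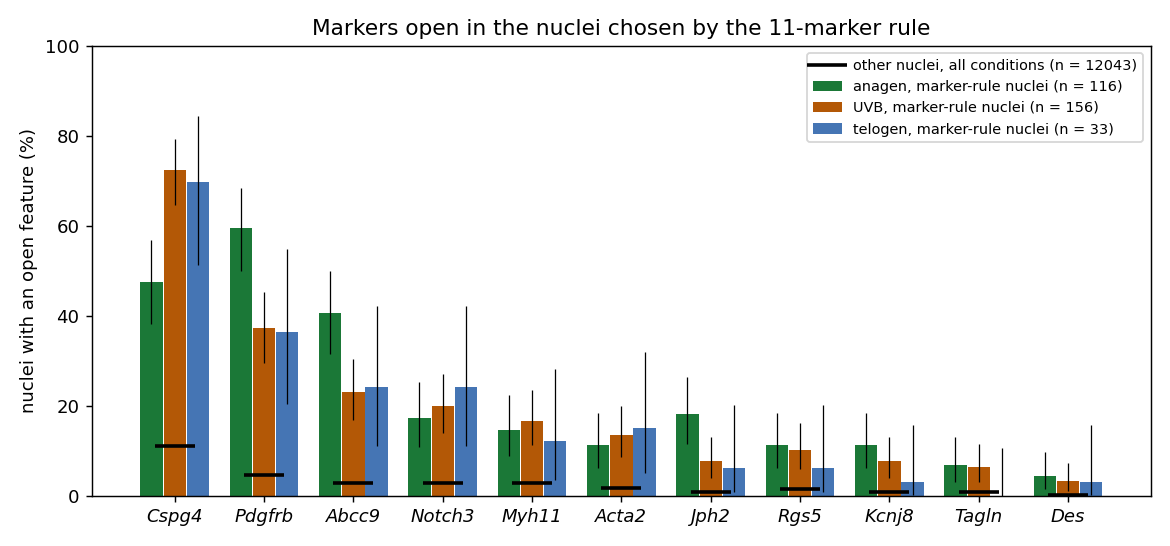
Share of nuclei (vertical axis, %) with an open feature in the window of each marker (horizontal axis), for marker-rule nuclei of anagen, UVB and telogen skin (bars, 95% Clopper-Pearson intervals) and for the other nuclei of all conditions (black lines). Cspg4 and Pdgfrb lead in all 3 conditions, with Pdgfrb highest in anagen and Cspg4 highest in UVB and telogen.

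Many regions stood behind these values. At Cspg4 all 24 window features were open in marker-rule nuclei, in a median of 16 nuclei each. At Pdgfrb 19 of 20 were open (median 7) and at Abcc9 all 19 (median 5). The Cspg4 feature most often open, at chr9:56877237-56877736 (mm10) in the gene body, was open in 49 marker-rule nuclei and 222 others, and 37 of the 49 were UVB nuclei. The next, at chr9:56876392-56876891, was open in 31 marker-rule nuclei and 53 others. At Abcc9 the first 2 features, chr6:142668090-142668589 and chr6:142616629-142617128, lie in the gene body and were open in 26 and 23 marker-rule nuclei and in 59 and 32 others. The marker feature open in the most marker-rule nuclei was at Pdgfrb, overlapping an end of its annotated gene, in 62 of them and 155 others. Among markers with a promoter entry, features over a gene start led at Kcnj8, Acta2 and Des, and 1 also lay over the start of Cspg4.

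The 250 bases before the starts of these genes are shown because an open marker feature covers or adjoins them (RefSeq, GRCm38.p6). They are written 5′ to 3′ on the gene's strand, and capitals mark a searched motif. Sites of the looser CArG form, added later and described below, are left in lower case. Cspg4 lies at chr9:56864854-56865103 on the plus strand, where the overlapping feature was open in 22 marker-rule nuclei and 85 others. Kcnj8 lies at chr6:142571615-142571864 on the minus strand, with 25 marker-rule nuclei and 91 others open at its feature. Acta2 lies at chr19:34255374-34255623 on the minus strand, with 14 marker-rule nuclei and 42 others.
Cspg4: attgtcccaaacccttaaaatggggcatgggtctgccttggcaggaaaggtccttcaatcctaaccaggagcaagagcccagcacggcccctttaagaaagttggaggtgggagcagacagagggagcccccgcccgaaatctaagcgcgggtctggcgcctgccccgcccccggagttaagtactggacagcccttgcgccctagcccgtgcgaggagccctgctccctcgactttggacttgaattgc
Kcnj8: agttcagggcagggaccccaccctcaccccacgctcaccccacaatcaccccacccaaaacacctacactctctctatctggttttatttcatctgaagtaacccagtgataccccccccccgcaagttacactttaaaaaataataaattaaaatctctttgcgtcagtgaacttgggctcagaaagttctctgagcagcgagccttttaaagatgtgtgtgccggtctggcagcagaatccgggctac
Acta2: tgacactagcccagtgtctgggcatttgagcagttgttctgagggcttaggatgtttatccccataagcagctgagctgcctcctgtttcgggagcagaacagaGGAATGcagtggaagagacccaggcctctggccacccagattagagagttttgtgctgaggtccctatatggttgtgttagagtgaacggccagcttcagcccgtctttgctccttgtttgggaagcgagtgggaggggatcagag

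Of the 11 markers, 8 had entries in the RefSeq promoter table, 9 promoters in all of 300 bases each, from 250 before to 50 after the start. Both strands were searched for 4 motifs of factors known in mural cells. The CArG box, bound by SRF and searched as CC and GG around 6 bases of A or T, was in 0 of the 9, and 1.63% of 32851 promoters held it. A looser form with 1 G or C among the inner bases, added after the sequences were seen, was in 3 of the 9, those of Acta2 (2 sites) and Jph2, and in 8.50% of all promoters. GTGGGAA, bound by the Notch partner RBPJ, was in 0, with 6.38% of all promoters, and the palindromic EBF motif was in 0, with 0.904%. CATTCC, bound by TEAD factors, was in the promoters of Acta2 (reverse strand, from base 105) and Abcc9, and in 14.7% of all promoters. No match says only that these letters are not in this window.

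Each marker was then read in nuclei chosen without it, by the same rule on the other 10. This is the one view of the markers that the choice did not use. Over all conditions the ratio of the chosen to the other nuclei, in CPM (counts scaled to the total of the nuclei summed), had an interval above 1 for 4 of 11 markers, below 1 for 0 and across 1 for 7, and the median ratio was 1.42. Des was 3.66 times as high (1.84 to 6.75, from 13 counts in the chosen nuclei), Jph2 2.72 times (1.82 to 3.95), Rgs5 1.48 times (1.00 to 2.11) and Pdgfrb 1.38 times (1.12 to 1.70).

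The most used marker did not follow the others. Cspg4 averaged 101 CPM in nuclei chosen from the other 10 markers and 115 CPM in the other nuclei, a ratio of 0.879 (0.724 to 1.06). Abcc9 had a ratio of 1.03 (0.747 to 1.39), Notch3 1.33 (0.991 to 1.76), Myh11 1.33 (0.984 to 1.76), Acta2 1.44 (0.987 to 2.03), Kcnj8 1.42 (0.849 to 2.24) and Tagln 1.48 (0.843 to 2.43). Against other nuclei of 2000 or more open features, 5 of 11 intervals lay above 1, those of Rgs5, Acta2, Myh11, Des and Jph2. With nuclei chosen by 2 or more features of the other markers, 5 lay above 1 and 1 below. Rgs5 then held 1 (1.18, 0.854 to 1.59), Abcc9 (1.52, 1.26 to 1.84) and Kcnj8 (1.64, 1.15 to 2.29) lay above 1, and Cspg4 lay below (0.790, 0.692 to 0.900).

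By condition, the median held-out ratio was highest in anagen. There 4 of 11 intervals lay above 1 and 0 below, with a median ratio of 1.79. Rgs5 had 31.5 CPM in the chosen anagen nuclei and 8.32 CPM in the other anagen nuclei (ratio 3.78, 2.22 to 6.17), and Jph2 had 41.9 CPM against 11.6 CPM (3.62, 2.27 to 5.59). In UVB, 2 intervals lay above 1 (Des and Kcnj8) and 2 below (Rgs5 and Cspg4), with a median of 1.24. In telogen 1 lay above (Rgs5, from 4 counts) and 1 below (Cspg4), and Tagln, Kcnj8 and Jph2 had 0 counts in the chosen nuclei.

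UVB tag number 19 moved this count. Within it, 0 of 11 held-out intervals lay above 1 and 2 below, whereas in the other UVB nuclei 3 lay above (Acta2 at 4.16, Kcnj8 at 4.14 and Des at 24.4 from 4 counts in each group) and 0 below. Over all conditions without tag number 19, 7 of 11 lay above 1. These were Des (5.52), Jph2 (3.53), Rgs5 (2.34), Acta2 (2.09), Tagln (1.91), Notch3 (1.47) and Pdgfrb (1.38), and Cspg4 stood at 1.01 (0.792 to 1.26).

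**Figure D2:**
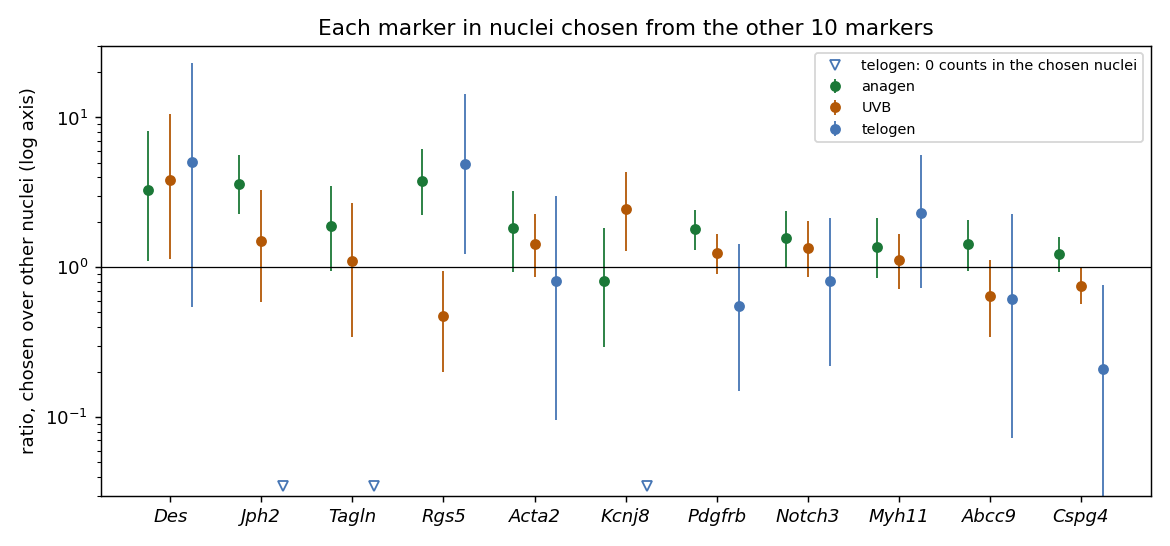
Ratio of CPM of each marker (vertical axis, log scale) in nuclei chosen from the other 10 markers over the other nuclei, by condition, with exact 95% intervals for counting error. Rgs5 lies above 1 in anagen and telogen and below 1 in UVB, and open triangles mark 0 counts in telogen.

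Genes outside the marker windows gave a further independent reading. Mural genes were taken from 5 lists of 75 genes in all, on pericytes, the contractile apparatus, mural transcription factors, ion channels and calcium, and vasoactive receptors with cGMP. Of these, 49 had 30 or more counts in marker-rule nuclei, the minimum used, and 5 were at least 2-fold higher than in the other nuclei while 0 were 2-fold lower. Over all 11602 genes with that minimum, 2.03% were 2-fold higher and 0.974% lower, and the median log2 ratio was 0.29 for the mural genes and -0.06 for all genes. The minimum was set on the marker-rule nuclei and so leaves out genes that are low there. With a minimum of 500 counts over all nuclei instead, 4 of 45 mural genes were 2-fold higher and 1 lower, with a median log2 ratio of 0.18, beside 1.21% and 2.64% of all genes and a median of -0.10.

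In anagen alone 8 of 38 mural genes were 2-fold higher and 1 lower (5.11% and 1.77% of all genes), with a median log2 ratio of 0.54, beside 0.04 for all genes. In UVB it was 4 of 40 and 0 (1.90% and 0.682% of all genes), with a median of 0.16, beside 0.01 for all genes. In telogen only 4 genes had the minimum, and 1 of them was 2-fold higher (7.61% of all genes higher and 0.103% lower). With 500 counts over all nuclei instead, 8 of 45 mural genes were 2-fold higher and 3 lower in anagen (median 0.48). In UVB it was 4 and 2 (median 0.08), and in telogen 6 and 9 (median -0.07). Of all 12041 genes, 383 were higher and 1280 lower in anagen (median -0.14). In UVB these were 158 and 439 (-0.06), and in telogen 711 and 2187 (-0.12). Taken as summed counts, the pericyte list stood at 803 CPM in marker-rule and 546 CPM in other nuclei of anagen skin (ratio 1.47, 1.34 to 1.61), at 693 and 625 CPM in UVB (1.11, 1.03 to 1.20) and at 670 and 536 CPM in telogen (1.25, 1.03 to 1.50). Without tag number 19 the UVB ratio was 1.25 (1.10 to 1.42).

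Myl9, the regulatory light chain of smooth muscle myosin, was furthest above the other nuclei among mural genes with 30 or more counts in marker-rule nuclei. It had 45.0 CPM in marker-rule nuclei and 14.6 CPM in the others (log2 1.62, 82 counts in marker-rule nuclei), with a ratio of 2.90 in anagen, 3.01 in UVB and 3.75 in telogen. Lmod1, leiomodin of the smooth muscle thin filament, had 63.1 CPM against 31.2 CPM (log2 1.02). Further contractile genes were closer to the other nuclei. Tpm2, a tropomyosin, had a log2 ratio of 0.83, Mylk, the myosin light chain kinase, 0.57 and Csrp1 -0.10. As a whole the contractile list had a ratio of 1.08 (1.04 to 1.12).

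Among pericyte genes, Foxs1, a forkhead factor, had 20.3 CPM in marker-rule nuclei and 8.24 CPM in the others (log2 1.30, 37 counts in marker-rule nuclei). Tbx18, a T-box factor of mural cells, had a log2 ratio of 0.81, Ebf1 0.76 and Ndufa4l2 0.67. Tbx18 was 2.99 times as high in anagen, 1.07 in UVB and 0.432 in telogen, where marker-rule nuclei had 1 count. Higd1b, a pericyte gene below the minimum and picked here after its values were seen, had 14 counts in marker-rule nuclei, at 7.68 CPM against 1.07 CPM in the others. The soluble guanylate cyclase subunits, which answer nitric oxide with cGMP, differed by condition. Gucy1a1 had a ratio of 0.579 over all conditions (0.409 to 0.796), with 0.975 in anagen and 0.467 in UVB. Gucy1b1 had 0.799 (0.613 to 1.03), with 1.57 in anagen (1.06 to 2.27) and 0.484 in UVB (0.322 to 0.699).

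Kcne4, a potassium channel subunit, had 42.8 CPM in marker-rule nuclei and 16.3 CPM in the others (log2 1.39), and Zic1, a zinc finger factor, had 81.7 and 35.9 CPM (log2 1.19). The factors Ebf2 (log2 0.89) and Hic1 (0.74) were less than 2-fold higher, and Mef2c (-0.65) and Tbx2 (-0.85) were lower. Channels and receptors of vascular tone showed no common direction. Cacna1c, the L-type calcium channel, stood at log2 0.35, Agtr1a, an angiotensin receptor, at 0.84, the IP3 receptor Itpr1 at -0.41 and the cGMP-dependent kinase Prkg1 at -0.41. The summed ratio was 0.987 for the channel list and 0.962 for the receptor list.

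Signals between endothelium and mural cells were read from 15 genes of the Notch, PDGF, angiopoietin and TGF-beta pathways, all with 30 counts or more. One was 2-fold higher and 0 lower (2.03% and 0.974% of all genes), with a median log2 ratio of 0.12. That gene was Heyl, a target of NOTCH3, with 31.8 CPM in marker-rule nuclei and 12.1 CPM in the others (log2 1.39), at a ratio of 3.73 in anagen, 1.68 in UVB and 2.46 in telogen. Tgfbr3, a TGF-beta co-receptor, followed at log2 0.76 with 919 counts in marker-rule nuclei. The Notch ligand Jag1 (-0.46) and the Notch target Hey2 (-0.84) were lower.

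Basement membrane and integrin genes were modestly higher. Of 18 genes with the minimum, 0 were 2-fold higher or lower (2.03% and 0.974% of all genes), and the summed ratio was 1.30 (1.26 to 1.35). The elastic fibre gene Eln had a log2 ratio of 0.98, and the neighbouring type IV collagen genes Col4a2 and Col4a1, which share a promoter region, had 0.87 and 0.71. The integrin subunit gene Itgb1 stood at -0.48 and Fbln5, an elastic fibre protein, at -0.58.

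Fibroblast genes stood higher than any mural list. Of 12 genes 11 had the minimum and 10 of these were 2-fold higher (2.03% of all genes), with a median log2 ratio of 1.20. Col1a1, a chain of type I collagen, had 316 CPM in marker-rule nuclei and 125 CPM in the others (log2 1.33). Dpt, dermatopontin of the dermal matrix, had 91.6 and 38.8 CPM (1.24), Twist2, a dermal factor, 75.7 and 31.8 CPM (1.25), and Mfap5, a microfibril protein, 17.6 and 6.14 CPM (1.52, 32 counts in marker-rule nuclei). Pdgfra, the fibroblast PDGF receptor, was the lowest of the list at log2 0.57. The summed ratio was 2.35 in anagen (2.22 to 2.50), 2.05 in UVB (1.94 to 2.16) and 2.00 in telogen (1.74 to 2.29).

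Set against other nuclei of 2000 or more open features, the fibroblast list was still higher, with a summed ratio of 1.74 (1.67 to 1.81). Its median log2 ratio was then 0.84, against 1.20 over all other nuclei. At this depth 2 of 11 genes were 2-fold higher, and the share over all genes was not computed. The pericyte list had 1.35 (1.27 to 1.43) in the same comparison and the contractile list 1.10 (1.05 to 1.14). Hair follicle mesenchyme genes had a summed ratio of 1.44 (1.28 to 1.62) over all other nuclei. Of 9 genes 4 had the minimum, and 1 of these, Col11a1 (log2 1.01), was 2-fold higher (2.03% of all genes).

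Markers of other skin cells went in different directions. Melanocyte genes were lower, with 6 of the 9 that had the minimum 2-fold lower (0.974% of all genes) and a median log2 ratio of -1.07. Tyr, the first enzyme of melanin synthesis, stood at log2 -1.64, Mlana at -1.52 and Kit at -1.01, whereas Mitf was at -0.02. Dct itself, whose promoter drives the sorted label, had 176 CPM in marker-rule nuclei and 408 CPM in the others (log2 -1.22). Endothelial genes had a summed ratio of 0.836 (0.765 to 0.912), with 0.793 in anagen, 1.10 in UVB (0.681 without tag number 19) and 0.458 in telogen. Myeloid and Langerhans genes had 0.469 (0.397 to 0.552), Schwann genes 0.961 (0.905 to 1.02) and keratinocyte genes 1.06 (0.972 to 1.16).

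Skeletal muscle genes, which also include actin and myosin genes, had a summed ratio of 0.981 (0.897 to 1.07), T cell genes 0.744 (0.627 to 0.878) and adipocyte genes 1.18 (1.06 to 1.31), with 1.43 (1.22 to 1.68) in anagen. Inflammatory mediator genes had 1.18 (1.12 to 1.25), with Il1r1, the interleukin-1 receptor, at log2 0.95 and Ccl2, a monocyte chemokine, at 0.93. Cell cycle genes had 1.02 (0.958 to 1.09) and housekeeping genes 0.948 (0.904 to 0.994). The part of other cell types in these values was not tested.

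**Figure D3:**
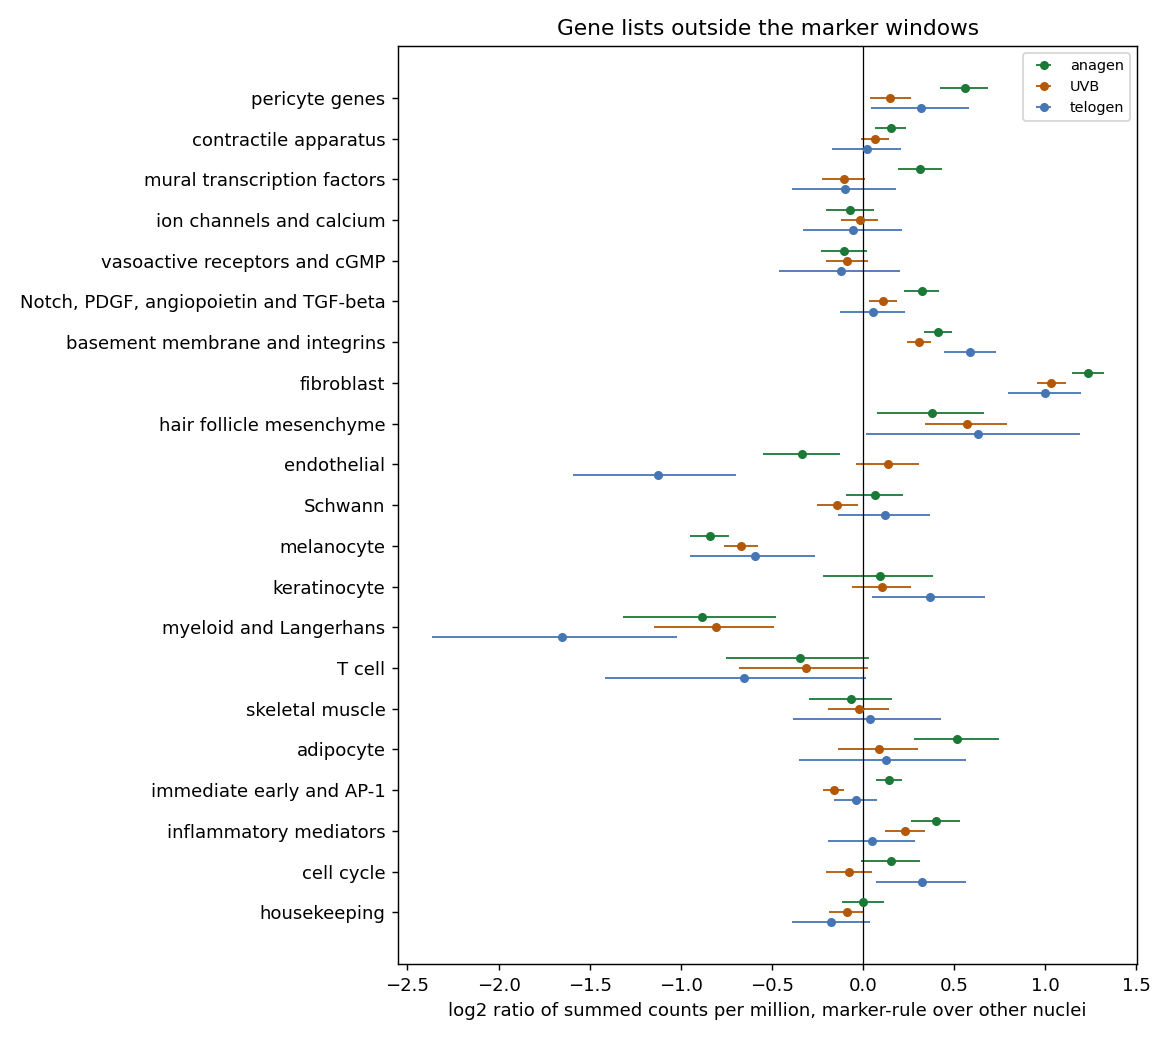
Log2 ratio of summed CPM (horizontal axis) of marker-rule over other nuclei for each gene list outside the marker windows, in anagen, UVB and telogen, with exact 95% intervals for counting error. The fibroblast list lies furthest right in all 3 conditions, and the pericyte list is highest in anagen.

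The overlap with fibroblasts was counted nucleus by nucleus, with a rule of the same form on the 12 fibroblast genes. Of the 305 marker-rule nuclei 126 also met it (41.3%, interval 35.7% to 47.1%), against 8.92% of the other nuclei. The share was 50.9% in anagen (59 of 116), 36.5% in UVB (57 of 156) and 30.3% in telogen (10 of 33). In the other nuclei of these conditions it was 12.2%, 7.36% and 7.86%. Marker-rule nuclei in turn made up 10.5% of the 1200 nuclei that met the fibroblast rule. Depth moved both shares. Among nuclei with 2000 or more open features, the overlap was 47.3% of marker-rule nuclei (40.5% to 54.1%) and 26.4% of the others (24.5% to 28.3%). At this depth it was 59.3% and 28.2% in anagen, and 42.0% and 27.5% in UVB. In telogen it was 30.0% (6 of 20, 11.9% to 54.3%) and 18.6% (14.5% to 23.2%), with intervals that overlap.

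In UVB this overlap lay mostly in 1 tag number. Within tag number 19, 53 of 100 marker-rule nuclei met the fibroblast rule, and 13.8% of the other nuclei did. In the remaining UVB nuclei it was 4 of 56 (7.14%, 1.98% to 17.3%), and 2.27% of the others. Over all conditions without tag number 19 the overlap was 35.6%, against 7.43% of the other nuclei. The summed fibroblast ratio was 1.66 within tag number 19 and 2.04 in the rest of UVB.

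The adipocyte rule was met by 7.27% of marker-rule nuclei with 2000 or more open features (4.21% to 11.5%) and 3.54% of the others, and in anagen by 14.8% (7.90% to 24.4%) and 4.54%. Other rules showed smaller or downward gaps. Among nuclei with 2000 or more open features, 13.2% of marker-rule nuclei and 11.9% of the others met the keratinocyte rule, 11.4% and 10.4% the Schwann rule, and 9.09% and 9.17% the endothelial rule. The melanocyte rule was met by 6.36% of marker-rule nuclei and 18.2% of the others. Of all 305 marker-rule nuclei, 83 met none of the 10 other cell type rules, 160 met 1 and 62 (20.3%) met 2 or more, against 401 of the 2116 other nuclei with 2000 or more open features. No doublet caller was run.

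**Figure D4:**
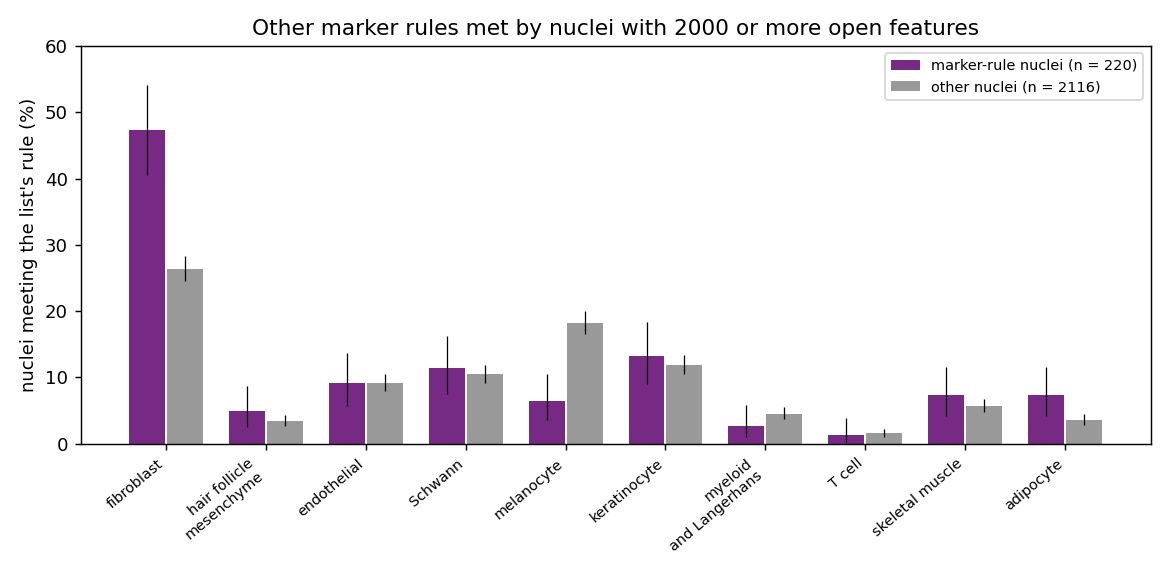
Share of nuclei with 2000 or more open features (vertical axis, %) that met the rule of each other cell type list, for 220 marker-rule nuclei and 2116 other nuclei, with 95% Clopper-Pearson intervals. The fibroblast rule shows the widest gap upward and the melanocyte rule the widest gap downward.

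The 179 marker-rule nuclei that missed the fibroblast rule were set beside nuclei that met neither rule. Pericyte genes had a summed ratio of 1.22 (1.12 to 1.31), contractile genes 1.14 (1.09 to 1.20) and mural transcription factors 1.01 (0.931 to 1.09). Fibroblast genes were at 467 and 291 CPM, a ratio of 1.60 (1.46 to 1.76). The split lowered this list on both sides, since nuclei of neither rule also leave out the fibroblast-rule nuclei. All nuclei outside the marker rule had 730 CPM. In the 126 nuclei that met both rules the ratios were 1.40 (1.30 to 1.52) for pericyte genes and 0.989 (0.933 to 1.05) for contractile genes. The 1074 nuclei of the fibroblast rule alone had 1.26 (1.21 to 1.30) for pericyte genes, an interval that overlaps that of the marker rule alone. Contractile genes were at 0.965 (0.940 to 0.990) there. Inflammatory mediator genes had 1.00 (0.920 to 1.09) for the marker rule alone, 1.57 for both rules and 1.44 for the fibroblast rule alone. Basement membrane and integrin genes had 1.26, 1.61 and 1.54 in the same order.

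Leaving the overlapping nuclei out changed the leading genes unequally. Against all other nuclei, Myl9 stood at log2 1.58 without them, Heyl at 1.33 and Lmod1 at 0.89. Zic1, at 1.19 with them, stood at -0.44 without them. The other nuclei kept their own fibroblast-rule nuclei, so genes more open in such nuclei are lowered in this comparison.

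Neighbours in the accessibility profile were read for 5709 nuclei of 1000 or more open features, each thinned to 950. They came from 30 components and 15 nearest neighbours. Features of the marker windows were left out of the profile, but those of the fibroblast list stayed in. Fibroblast-rule nuclei could thus be neighbours through the features of their own rule, and marker-rule nuclei could not. For the 288 marker-rule nuclei among them, 7.85% of neighbours were marker-rule nuclei, which made up 5.04% of the nuclei used, and 40.7% were fibroblast-rule nuclei, which made up 18.2%. No marker-rule neighbour was found for 105 of the 288, 5 had 5 or more, and 6 was the most.

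Nuclei of the fibroblast rule alone had more marker-rule neighbours (9.36%) than nuclei of the marker rule alone (6.95%, 163 nuclei). Nuclei that met both rules had 70.1% fibroblast-rule neighbours, close to the 69.4% of the fibroblast rule alone. Nuclei of the marker rule alone had 18.1% fibroblast-rule neighbours, with 27.6% in anagen, 13.2% in UVB and 17.6% in telogen.

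**Figure D5:**
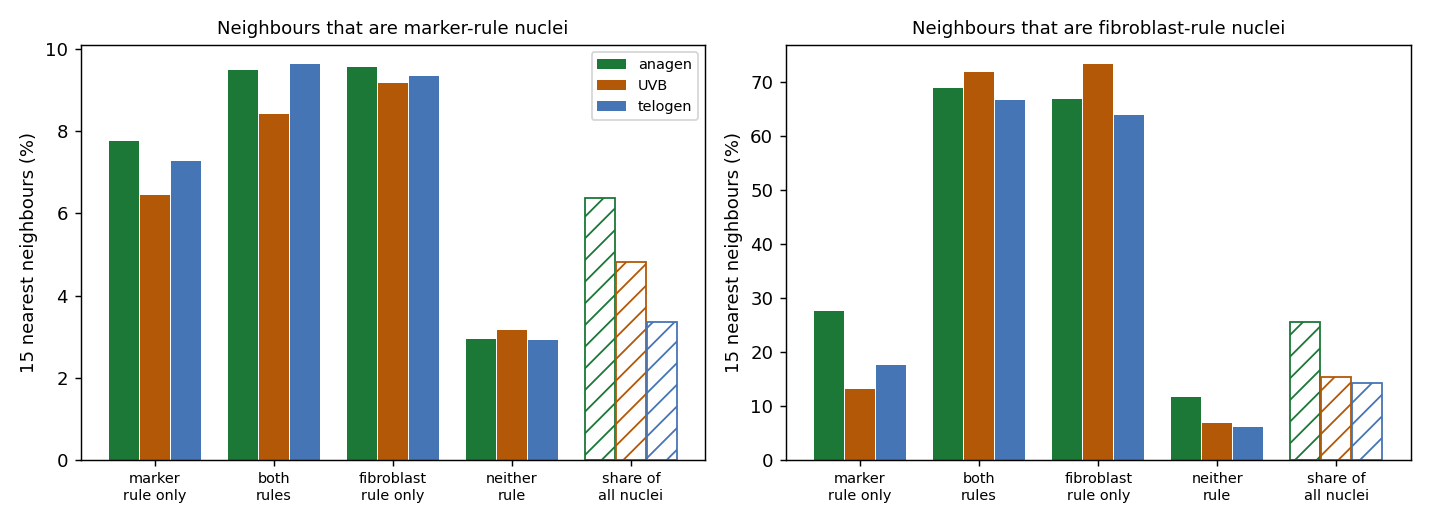
Share of the 15 nearest neighbours (vertical axis, %) that are marker-rule nuclei (left) and fibroblast-rule nuclei (right), for nuclei of each rule combination by condition; hatched bars give the share of all nuclei used. Nuclei that met both rules and those of the fibroblast rule alone stand at similar heights on the right, and on the left no set of nuclei exceeds 10%. The profile left out the marker windows and kept the fibroblast windows, so the left and right panels are not alike.

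Genes on none of the lists were named where they had 100 or more counts in marker-rule nuclei and were at least 2-fold higher in each condition, which 16 genes were. The minimum was set on marker-rule nuclei, and the genes that met it were not counted. In telogen, the ratios of Loxl2 (0.714 to 4.54) and Galnt12 (2.48, 0.967 to 5.36, from 7 counts) had intervals that hold 1. Loxl2, a lysyl oxidase relative that cross-links collagen, led with 58.1 CPM in marker-rule nuclei and 19.9 CPM in the others (ratio 2.93), at 4.39 in anagen, 2.17 in UVB and 2.00 in telogen (6 counts in marker-rule nuclei). Podn, a small leucine-rich proteoglycan of the matrix, had 68.0 and 26.2 CPM (2.60) and Mmp23, a membrane metalloproteinase, 63.1 and 24.7 CPM (2.56). The others in order were Galnt12 (2.56), Gask1a (2.54), the RNA-binding protein gene Bicc1 (2.49), the myosin gene Myo18b (2.48), Lsp1 (2.40), Arhgef17 (2.34) and Itga11, the collagen-binding integrin alpha 11 (2.34).

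Without the nuclei that met the fibroblast rule, Arhgef17 stood at log2 1.21 and Itga11 at 0.91, against 1.23 and 1.23 with them. Loxl2 was then at 0.03 and Bicc1 at -0.03, against 1.55 and 1.32. Here too the other nuclei kept their fibroblast-rule nuclei, which lowers genes more open in such nuclei.

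Within marker-rule nuclei the conditions were compared over summed counts, in genes with 50 or more counts over both groups. The totals were 644461 counts in anagen, 998238 in UVB and 182415 in telogen. In anagen over telogen, 10.6% of 4837 genes were 2-fold or more higher and 4.69% lower. In UVB over telogen it was 10.0% of 7028 genes and 4.77%, and in UVB over anagen 5.26% of 8772 genes and 2.90%. Each condition enters 2 of the 3 comparisons. In each pair the first condition had the larger total, so a gene could reach the minimum through that condition alone. A gene high there passes more easily, so the shares higher and lower are not a like comparison. The part of counting error in these shares was not tested. With all nuclei, UVB over telogen had 1041 of 7028 genes 2-fold apart. Without UVB tag number 19 and with telogen tag numbers 8 to 10 only, it had 464 of 1524, where fewer genes reached the minimum.

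Mural lists differed by less than 2-fold between conditions. In anagen over telogen, 3 of 6 mural transcription factor genes with the minimum were 2-fold higher (10.6% of all genes). Their list had a summed ratio of 1.57 (1.28 to 1.95), beside 1.18 in the other nuclei. In the same pair, the fibroblast list had 1.63 (1.41 to 1.89), beside 1.39 in the other nuclei, the melanocyte list 2.85 (2.24 to 3.67), beside 3.38, and the keratinocyte list 0.305 (0.227 to 0.409), beside 0.368. Their part in the mural values was not tested. The contractile list had 1.37 (1.19 to 1.59), beside 1.25 in the other nuclei, with 1 of 11 genes 2-fold higher (10.6% of all genes). The pericyte list had 1.20 (0.983 to 1.47), beside 1.02. In UVB over telogen these 3 lists had 1.04 (0.847 to 1.29), 1.12 (0.972 to 1.29) and 1.03 (0.853 to 1.27). Vasoactive receptor genes had 1.89 (1.49 to 2.42) in anagen over telogen, and 1.87 in the other nuclei.

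In UVB over anagen, mural transcription factors were at 612 CPM in UVB and 923 CPM in anagen (ratio 0.663, 0.591 to 0.743), beside 0.888 in the other nuclei. Of 8 such genes, 2 were 2-fold lower (2.90% of all genes). Pericyte genes had 0.863 (0.769 to 0.969), beside 1.14 in the other nuclei, and contractile genes 0.814 (0.752 to 0.880), beside 0.864. Fibroblast genes had 0.732 (0.678 to 0.790), beside 0.841. In this pair, immediate early and AP-1 genes, which answer stress and growth signals, had 0.954 (0.898 to 1.01) in marker-rule nuclei and 1.18 in the other nuclei.

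An empty count was set to 3 before single genes were ranked. A gene with no counts in 1 condition could thus rank below one with 1 count. In this ranking, the genes highest over telogen rested on few telogen counts. In anagen over telogen these were Hoga1, with 68 counts in anagen and 1 in telogen (ratio 19.2, 3.34 to 771), Olfml3, Odf3l2, Atp6v1b2 and Pde2a, and in UVB over telogen Mcoln2, with 91 counts in UVB and 1 in telogen, Kank4, Rab38, Gpm6a and Casc1. On the other side, Lama5, a laminin chain, had 28.0 CPM in anagen and 176 CPM in telogen (ratio 0.159, 0.0841 to 0.292), followed by Crybg1, Adgra3, Mrps12 and Art3. Slc12a3 had 29.1 CPM in UVB and 148 CPM in telogen (0.196, 0.112 to 0.344), followed by N4bp3, Foxn1, Dnajb2 and Hspb1.

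Some of the widest gaps in this ranking were also present in the other nuclei and some were not. In UVB over anagen, Myh7 and Myh6, neighbouring cardiac myosin heavy chain genes, had 2.01 and 8.02 CPM in UVB and 141 and 283 CPM in anagen, ratios of 0.0142 and 0.0284, and in the other nuclei the ratios were 0.0135 and 0.0180. Slc7a8, near them on chromosome 14, had 0.183, beside 0.204 in the other nuclei. The gene 4930503B20Rik had 0.169, beside 0.908 in the other nuclei, and Lgi1 had 0.210, beside 0.826. Perp, a desmosome protein of keratinocytes, had 55.2 CPM in UVB and 3.11 CPM in anagen (17.8, 4.69 to 150.2, from 2 anagen counts), beside 2.26 in the other nuclei, followed by Itga6 (8.50, beside 1.68), Coa4, Myh14 and Pard6b. Keratinocyte genes as a list had a ratio of 2.17 (1.73 to 2.75), beside 2.15 in the other nuclei.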

How the data were processed

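The authors deposited 1 matrix per condition of whole-number counts per feature and nucleus, over 315694 features of 500 bp. Bowtie2, SAMtools, MACS2 and mm10 (GRCm38) are named in the submitters' processing notes. The step from reads to counts, any shift of cut sites and any filter on nuclei: not given in the sources used here. The submitted UVB sample has technical replicates, which were not mapped to nuclei.

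Within a condition, entries with the same barcode were counted once, by their deeper copy, which removed 1721 entries in anagen (31.4%), 62 in UVB (0.937%) and 543 in telogen (21.0%). This left 3753 anagen nuclei with 10397896 counts, 6553 UVB nuclei with 16182770 and 2042 telogen nuclei with 5225945. The markers, the members and the 21 gene lists (251 genes, all matched in RefSeq, GRCm38.p6) were chosen with earlier results of these data known. Counts were summed over gene bodies plus 2 kb and, outside the marker windows, scaled to CPM. Shares have Clopper-Pearson and ratios exact conditional binomial 95% intervals. With 1 sample per condition no test was run. No doublet caller was run, and an alternative left out nuclei above 3 times the median count.

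Named genes were the 11 markers, Dct, up to 4 highest and 2 lowest genes of each list with 30 or more counts, the 10 highest genes on no list with 100 or more counts and 2-fold or more in each condition, and the 5 highest and 5 lowest genes for each pair of conditions with 50 or more counts. A gene that this rule names is not reported here. Alternatives are given in the closing section. Python 3.11.15, numpy 2.4.6, scipy 1.17.1, pandas 2.3.3, scikit-learn 1.9.0 and matplotlib 3.10.9 were used, and the computations were tested on simulated data.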

Additional observations from a re-analysis of the deposited data

Results flagged for a closer look

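Rgs5, read in nuclei chosen from the other 10 markers, lay on opposite sides of the other nuclei in different conditions. Its ratio was 3.78 in anagen (21 counts in the chosen nuclei), 0.472 in UVB (8 counts) and 4.87 in telogen (4 counts). In UVB without tag number 19 the ratio was 0.897 (0.287 to 2.14), an interval that holds 1. With nuclei chosen by 2 or more features of the other markers, the telogen ratio was 2.13 (0.535 to 6.22). The difference between conditions was not tested.

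The list of immediate early and AP-1 genes stood at a summed ratio of 1.10 in anagen and 0.895 in UVB, with intervals on opposite sides of 1. Without tag number 19 the UVB ratio was 0.876 (0.817 to 0.938). This difference was not tested either.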

How the results depend on the processing

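No paired analysis was possible because each condition is 1 sample and no test was run. The share of chosen nuclei moved under several alternatives. In anagen, UVB and telogen it was 1.49%, 0.931% and 0.539% with 4 or more open marker features, 1.31%, 0.656% and 0.490% with 3 or more different markers open, 1.54%, 0.485% and 0.865% after thinning, 1.60%, 1.05% and 0.919% without nuclei above 3 times the median count, and 2.13%, 1.05% and 0.686% without Cspg4 among the markers. At 3 times the pooled share it was 2.53% in anagen and 1.62% in UVB, and without tag number 19 it was 1.55% in UVB.

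After thinning, the fibroblast overlap was 15.4% of 26 nuclei in anagen (4.36% to 34.9%) and 20% of 15 in UVB (4.33% to 48.1%). No thinned share was computed for the other nuclei. The overlap in anagen and UVB was 41.2% and 25.8% without the deepest nuclei, and 61.3% and 62.3% without Cspg4. In UVB it was 58.1% with 3 different markers open and 7.14% without tag number 19. In telogen it was 9.09% with 4 or more features (0.230% to 41.3%). The mural median (log2) in anagen was 0.74 with 4 or more features, 0.88 with 3 different markers open and 0.78 against deep nuclei. Over all conditions it was 0.51 without the deepest nuclei, 0.50 with 3 different markers open and 0.44 without UVB tag number 19 and with telogen tag numbers 8 to 10 only. In UVB it was 0.61 from features within 1 kb of a gene end. The count of held-out markers above the other nuclei was 7 without UVB tag number 19, against 4.

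Comparing anagen with telogen gave 742 of 4837 genes that were 2-fold apart, UVB with telogen 1041 of 7028 and UVB with anagen 715 of 8772. With 20 or more counts they numbered 2427 of 9887, 2492 of 11567 and 1807 of 12540. From features near gene ends they numbered 289 of 2175, 643 of 3926 and 383 of 5470. After thinning they numbered 1 of 5, 0 of 1 and 1 of 7, where few genes reach the minimum. Anagen over telogen gave 295 of 1700 without the nuclei of the fibroblast rule. UVB over telogen gave 464 of 1524 with the tag numbers left out as above.

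Leaving out marker-rule nuclei of the fibroblast rule turned signs. For genes of the fibroblast list this follows from the split, since the other nuclei keep theirs. The fibroblast median was then -0.45 over all conditions and -0.77 in UVB. Col1a1 stood at -0.72, Col5a2 at -0.20, Dpt at -1.01, Mfap5 at -1.60, and Twist2 at -0.013. Off that list, Zic1 stood at -0.44, Tnnt3 at -1.46, Gask1a at -0.18, Bicc1 at -0.028 and Lsp1 at -0.19. A gene off that list that is more open in fibroblast-rule nuclei is lowered in the same way. Whether this holds for these genes was not tested, nor was the cause of the other moves. Genes with too few counts and medians over fewer than 3 genes could not be given, which left out most telogen values. The alternatives without Cspg4, against deep nuclei, with 500 counts over all nuclei and without tag number 19 were chosen after seeing the data.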
